A study of Homo sapiens with 4 samples.

Results

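Aminoacyl-tRNA synthetases are the enzymes that join each amino acid to its transfer RNAs, and the 38 human genes that encode them were followed here through an RNA immunoprecipitation sequencing experiment against PHGDH. They were chosen by name: a symbol of 1 amino acid letter followed by ARS with an optional digit, plus EPRS1, FARSA, FARSB and FARS2. All 38 were found among the 44715 gene symbols of the deposited tables. Of these, 19 encode enzymes of the cytosol, 17 encode enzymes of mitochondria, and GARS1 and KARS1 encode both forms from 1 gene.

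The cells were HEK293T, an established line from human embryonic kidney that carries the SV40 large T antigen. RNA-protein complexes were taken from lysates under native conditions, without crosslinking being mentioned in the labels, either with an antibody against PHGDH, the first enzyme of serine synthesis from glucose, or with IgG as control. There were 2 libraries for each antibody, which the design text calls biological replicates, and no other treatment or genotype. They are called anti-PHGDH 1, anti-PHGDH 2, IgG 1 and IgG 2 below, after the numbers in their titles. The study asked whether PHGDH binds RNA. No library of the lysate before precipitation was analysed here, so a value is a share of the RNA recovered and not a level in the cell.

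Human cells keep mostly separate synthetases for cytosolic and mitochondrial translation, all encoded in the nucleus. By the fold of the catalytic domain the enzymes belong to class I or class II. In animals several cytosolic enzymes are held with the scaffold proteins AIMP1, AIMP2 and EEF1E1 in a particle known as the multisynthetase complex. Transcription of many cytosolic synthetase genes responds to amino acid shortage through the factor ATF4.

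Values are in CPM, a gene's reads divided by all reads of the library and multiplied by 1000000, from which the read counts were recovered. The libraries held 3365837 reads for anti-PHGDH 1, 1216477 for anti-PHGDH 2, 3875746 for IgG 1 and 1579430 for IgG 2, so that 1 read was worth 0.297, 0.822, 0.258 and 0.633 CPM in that order. IgG 1 stood apart: 4148 gene symbols were above 0 in it, against 14518 to 16767 in the other 3 libraries, although it was the deepest. Mitochondrially encoded transcripts made up 28.8% of the reads of anti-PHGDH 1, 8.69% of anti-PHGDH 2, 3.87% of IgG 1 and 3.37% of IgG 2. The targeted protein's own mRNA, PHGDH, had 6550 CPM in anti-PHGDH 1, 1531 in anti-PHGDH 2, 0 in IgG 1 and 461 in IgG 2. Of the marker genes expected in HEK293T, VIM was at 199 to 530 CPM and KRT18 at 74.3 to 200.2 CPM in the 4 libraries, while KRT8 and LIN28B were at 0 in IgG 1 and at 43.1 to 63.9 and 23.8 to 32.9 CPM in the other 3. The leukocyte markers PTPRC and CD3E, the endothelial marker PECAM1 and the red cell marker HBB were at 0 in all 4, the liver marker ALB had 0.297 CPM in anti-PHGDH 1 and 0 elsewhere, and the fibroblast marker COL1A1 reached 12.3 CPM at most.

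Tests covered 9524 genes, those that reached 5 CPM in 2 or more libraries, and 34 of the 38 synthetase genes were among them: 17 cytosolic, 15 mitochondrial, and GARS1 and KARS1. The cytosolic cysteine enzyme gene CARS1 was too low, at 2.08 CPM in anti-PHGDH 1, 3.29 in anti-PHGDH 2, 0 in IgG 1 and 1.90 in IgG 2, which is 7 reads at most. VARS1 and VARS2, which encode the cytosolic and the mitochondrial valine enzyme, and SARS2, which encodes the mitochondrial serine enzyme, were listed at 0 in all 4 libraries. For a gene with no read, an upper limit of 3 reads stands at 0.891 CPM in anti-PHGDH 1, 2.47 in anti-PHGDH 2, 0.774 in IgG 1 and 1.90 in IgG 2.

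VARS2 and VARS1 lie on the short arm of chromosome 6, at chr6:30914238-30926459 and chr6:31777518-31795752 of GRCh38.p14, which is the hg38 build that the submitters' processing notes name. Of the 44 protein-coding genes between them, 32 were also listed at 0 in every library, or 72.7%, against 29.3% of the 19271 protein-coding genes in the tables. These 32 include genes that nearly every cell uses, such as DDX39B, an RNA helicase of the splicing and export machinery, and CSNK2B, the regulatory subunit of casein kinase 2. SARS2 lies at chr19:38915266-38930763. Within 100000 bases of it, 5 of 9 coding genes were listed at 0 in all 4 libraries, and MRPS12, a mitochondrial ribosomal protein gene, had 0.633 CPM in IgG 2 and 0 elsewhere. The zeros of the 3 synthetase genes are therefore given as listed and not as absence of the mRNA.

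**Figure D1:**
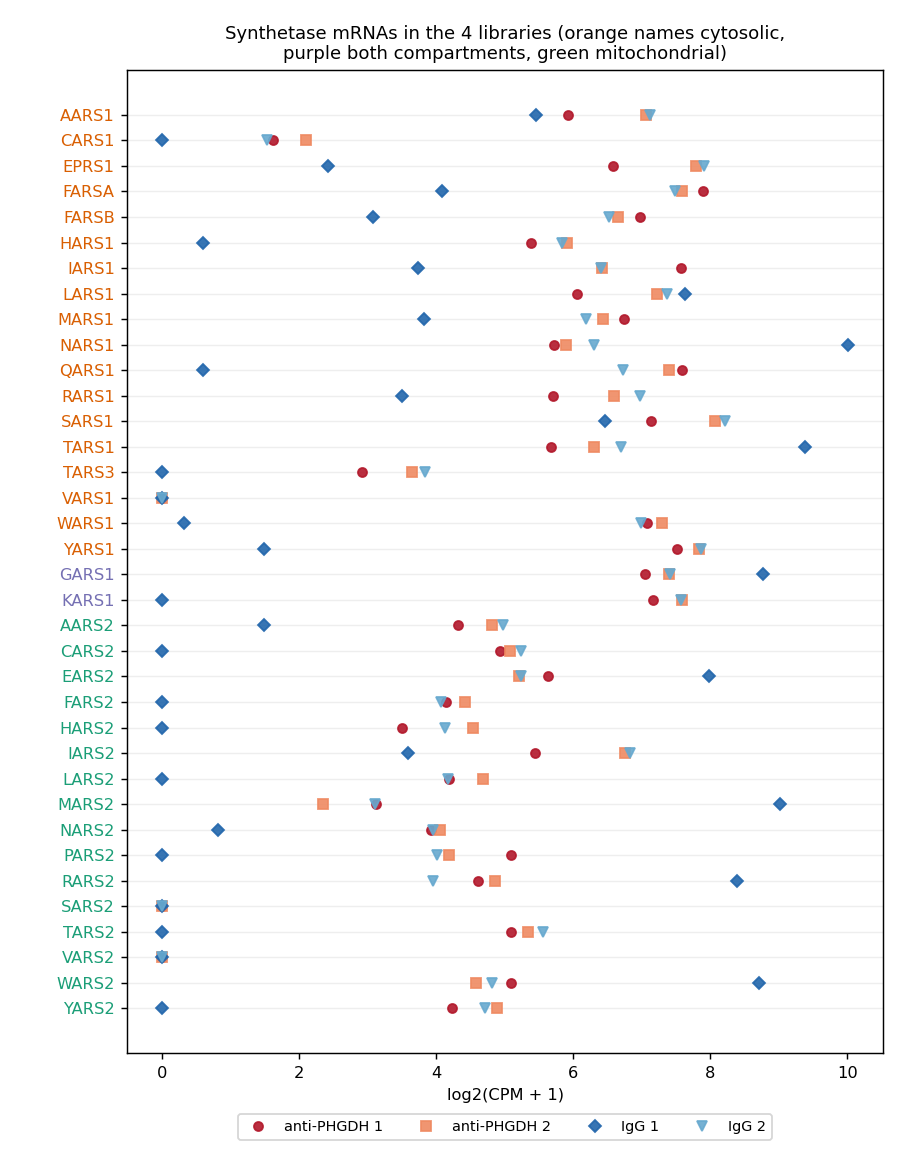
Values of 36 synthetase genes on the log2(CPM + 1) scale, 1 point for each library. In the rows of most genes anti-PHGDH 1, anti-PHGDH 2 and IgG 2 lie close together and IgG 1 lies far to the left or, for genes such as NARS1 and MARS2, far to the right.

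No synthetase mRNA passed the test for a difference between the anti-PHGDH and the IgG libraries. With limma on log2(CPM + 1) across all genes tested, 0 of 34 were higher and 0 of 34 were lower at a Benjamini-Hochberg adjusted p of 0.05, where 0.0105% and 0% of all genes were. At an unadjusted p under 0.05 limma had 0 of the 34, against 261 genes higher and 0 lower in all. On the recovered reads edgeR also called 0 of the 34, and so did DESeq2. Both called 0 of all genes tested higher and 0 lower, so this count is not particular to the synthetases. In each, MARS2 was the 1 synthetase gene at an unadjusted p under 0.05 (lower). Over all genes the unadjusted counts were 21 higher and 162 lower in edgeR and 89 higher and 149 lower in DESeq2. In limma they changed with the scaling, to 43 and 359 with each library centred on its median, where 1 synthetase was among the lower, and to 196 and 176 after quantile normalization. With 2 libraries for each antibody, an exact permutation test of a single gene cannot go below p = 0.33, two-sided.

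A rule without a variance estimate gave the same count. For 0 of the 34 genes were both anti-PHGDH libraries at least 2-fold above both IgG libraries on the CPM + 1 scale, against 9.3% of all genes tested, and for 0 of the 34 were they at least 2-fold below, against 0.084%. Without a fold limit, both anti-PHGDH libraries were above both IgG libraries for 9 of 34, against 38.3% of all genes. These were FARSA and FARSB, the subunits of the cytosolic phenylalanine enzyme, IARS1, MARS1, QARS1, WARS1, FARS2, LARS2 and PARS2. They were below both for 4 of 34, LARS1, NARS1, TARS1 and GARS1, against 6.16% of all genes.

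Between anti-PHGDH 2 and IgG 2 the synthetase mRNAs were near equal, and between anti-PHGDH 1 and IgG 2 they were not. The first difference, anti-PHGDH 2 minus IgG 2 on the log2(CPM + 1) scale, had a median of -0.02 over the 34 genes, and 16 of the 34 were above 0. The median was -0.03 for the cytosolic and -0.02 for the mitochondrial genes, beside 0.18 over all genes tested. The median size of the difference, sign left out, was 0.17 over the synthetases, 0.39 over all genes tested and 0.32 over the 4908 genes with a mean of at least 20 CPM. In the libraries numbered 2, 0 of 34 were past 2-fold in either direction, where 12.5% of all genes tested were higher and 1.97% lower. Among genes with a mean of at least 20 CPM, a limit set after the values were seen, 0 of 26 synthetase genes were past 2-fold, where 9.41% of genes were higher and 0.611% lower. That mean is over all 4 libraries, so a gene can pass through IgG 1 alone. MARS2 did so, with 518 CPM in IgG 1, 4.11 in anti-PHGDH 2 and 7.60 in IgG 2. The limit thus does not select genes well counted in the libraries numbered 2.

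The labels do not say that the replicate numbers pair the libraries, so anti-PHGDH 1 was also set against IgG 2, a comparison added after the values were seen. The median of anti-PHGDH 1 minus IgG 2 was -0.39 over the 34 synthetases, with a median size of 0.57, and 13 of the 34 were above 0. The median was -0.58 for the cytosolic genes, -0.03 for the mitochondrial genes and 0.16 for all genes tested, where the median size was 0.76. At least 2-fold above IgG 2 were 2 of 34, IARS1 and PARS2, the mitochondrial proline enzyme gene, against 24.4% of all genes. At least 2-fold below were 8 of 34, against 14% of all genes, 7 of them cytosolic and 1 mitochondrial, IARS2. The cytosolic ones included AARS1, EPRS1, LARS1, RARS1, SARS1 and TARS1. For EPRS1 the ratio of anti-PHGDH 1 to IgG 2 was 0.395, and for IARS1 it was 2.25, whereas anti-PHGDH 2 over IgG 2 was 0.918 and 1.01. CPM are shares of all reads, and mitochondrially encoded transcripts made up 28.8% of anti-PHGDH 1 and 3.37% of IgG 2. CPM were not rescaled to the other reads for this comparison, and the part of that share in the differences was not tested.

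**Figure D2:**
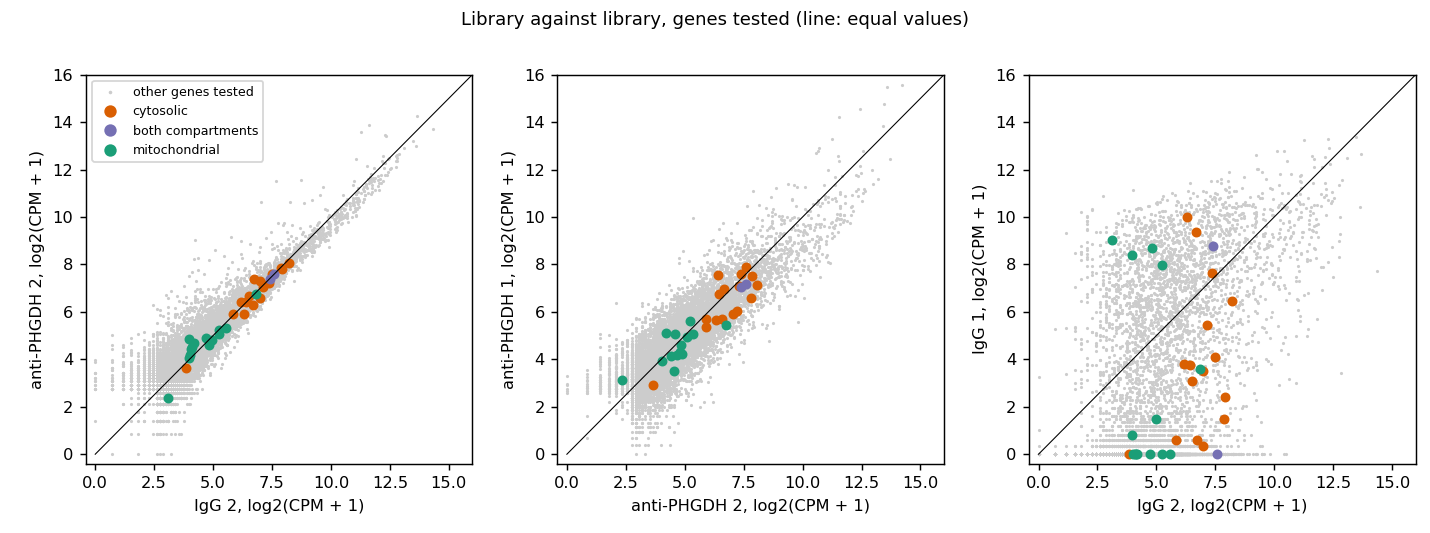
Library against library on log2(CPM + 1), with all genes tested in grey and 32 synthetase genes coloured by compartment; the line marks equal values. The synthetases lie along the line for anti-PHGDH 2 against IgG 2, more loosely for anti-PHGDH 1 against anti-PHGDH 2, and on both sides of it with many at 0 for IgG 1 against IgG 2.

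QARS1, the cytosolic glutamine enzyme gene at chr3:49095932-49104757, had the highest ratio between the libraries numbered 2 among the cytosolic genes. It was at 191 CPM in anti-PHGDH 1, 168 in anti-PHGDH 2, 0.516 in IgG 1 and 105 in IgG 2, or 180 ± 16.7 against 52.8 ± 74.0 CPM (mean ± SD, n = 2 each). Both anti-PHGDH libraries thus lay above both IgG libraries, with a ratio of 1.60 between anti-PHGDH 2 and IgG 2 (95% counting interval 1.29 to 1.97). In the limma fit QARS1 had the lowest unadjusted p of the 34 genes, 0.0552, and an adjusted p of 0.677. Its fold change of 3.83 ± 2.00 (log2, SE) was 0.76 without IgG 1.

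Of 34 such ratios 24 lay between 0.8 and 1.2. The counting interval left out 1 for 5 genes, without adjustment for the number of genes. Neither count is given here over all genes tested, so neither tells whether the synthetases differ from other genes. These intervals cover counting error only, since reads without molecular identifiers are not independent molecules. For the cytosolic arginine enzyme gene RARS1 the ratio was 0.765 (0.602 to 0.966), and for TARS1, the cytosolic threonine enzyme gene, it was 0.761 (0.585 to 0.987). RARS2, which encodes the mitochondrial arginine enzyme, had the highest ratio of the 34, 1.92 (1.10 to 3.41), from 27.9 CPM in anti-PHGDH 2 and 14.6 in IgG 2. WARS1, the cytosolic tryptophan enzyme gene, had a ratio of 1.23 (1.00 to 1.5). Here the cytosolic and the mitochondrial arginine enzymes moved to opposite sides of 1, each by less than 2-fold.

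The other genes at the ends of the order had intervals that held 1. Among the cytosolic genes these were MARS1, the methionine enzyme gene, at 1.19 (0.907 to 1.57), and FARSB at 1.10 (0.855 to 1.41) on the upper side, and TARS3 at 0.866 (0.407 to 1.78) and NARS1, the asparagine enzyme gene, at 0.749 (0.552 to 1.01) on the lower side. Among the mitochondrial genes the higher ratios were those of LARS2, 1.44 (0.829 to 2.52), HARS2, 1.35 (0.757 to 2.40), and FARS2, 1.3 (0.715 to 2.36). The lower ones were those of MARS2, 0.541 (0.149 to 1.65) from 5 and 12 reads, WARS2, 0.845 (0.506 to 1.39), and TARS2, 0.854 (0.580 to 1.25). Most mitochondrial genes had fewer reads and wider intervals than the cytosolic genes. By counting error alone, a difference of 1.5-fold could be seen for a gene such as YARS1 but not for one such as HARS2. The spread between libraries of the same antibody is not in these intervals. Between anti-PHGDH 1 and anti-PHGDH 2 the median size of the difference was 0.50 over the 34 genes, on the log2(CPM + 1) scale.

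**Figure D3:**
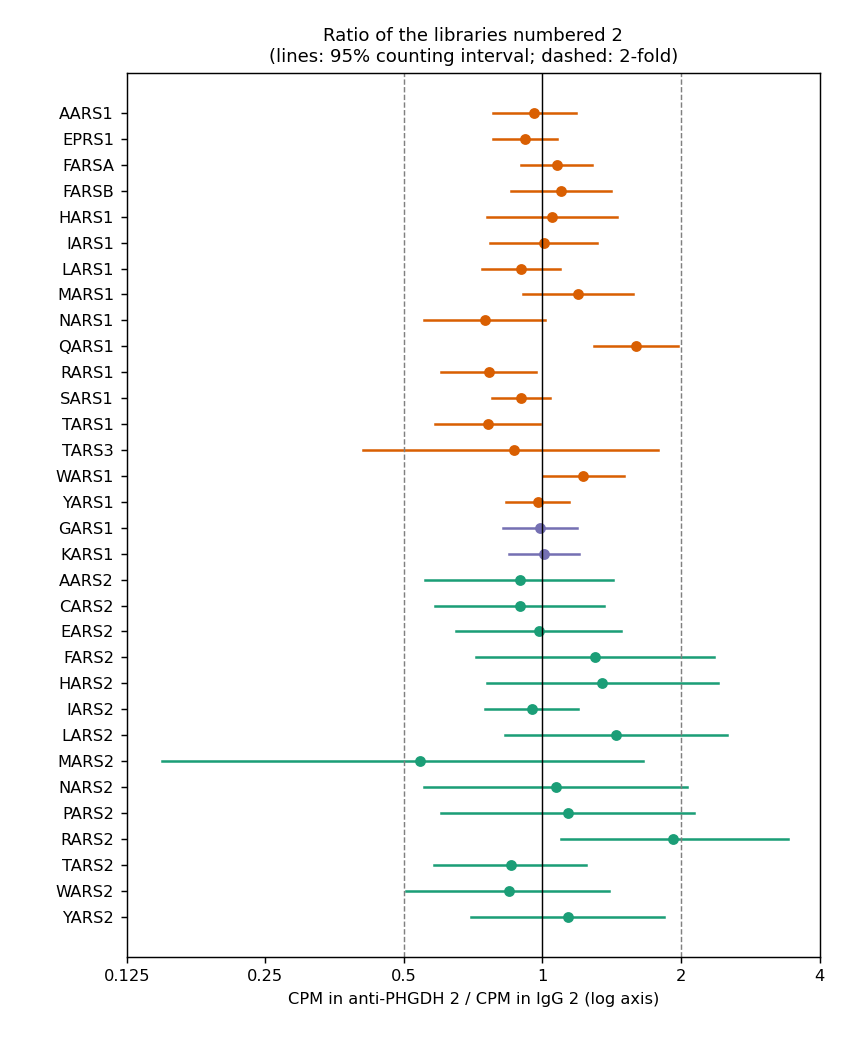
Ratio of CPM in anti-PHGDH 2 to CPM in IgG 2 for 32 tested synthetase genes on a log axis, with 95% counting intervals; orange marks cytosolic, purple both and green mitochondrial enzymes. All 32 points lie between the dashed lines at 2-fold, and the intervals are wider for the mitochondrial genes.

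The serine enzyme is of note because PHGDH supplies serine. SARS1, its cytosolic form, lies at chr1:109213893-109238182 and was at 140 CPM in anti-PHGDH 1, 267 in anti-PHGDH 2, 87.7 in IgG 1 and 297 in IgG 2. The anti-PHGDH values lay between the IgG values. The ratio between the libraries numbered 2 was 0.900 (0.779 to 1.04), and the fitted difference was 0.26 ± 1.54 (log2, SE; limma adjusted p = 0.912). Its direction is not settled, since scaling by TMM factors gave -0.0037 and centring on library medians gave -2.24.

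GARS1 and KARS1 make both the cytosolic and the mitochondrial form of the glycine and the lysine enzyme. GARS1 was at 132, 168, 436 and 170 CPM in anti-PHGDH 1, anti-PHGDH 2, IgG 1 and IgG 2, and KARS1 was at 143, 192, 0 and 190 CPM in the same order. In the 3 libraries other than IgG 1 the genes had like values, and their ratios between the libraries numbered 2 were 0.988 (0.820 to 1.19) and 1.01 (0.846 to 1.2). In IgG 1 they lay at opposite ends, GARS1 with 1690 reads and KARS1 with 0. Their fitted differences followed IgG 1, at -0.87 ± 1.51 for GARS1 and 3.59 ± 2.00 for KARS1 (log2, SE; limma adjusted p = 0.704 and 0.677), and were -0.19 and -0.20 without it.

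IgG 1 held some synthetase mRNAs at high values and most others at or near 0. In it 8 of the 34 genes were at least 2-fold above every other library, against 12.2% of all genes tested, and 23 were at least 2-fold below every other library, against 74.5%. At 0 were 10 of the 34, against 61.9% of all genes: 8 of 15 mitochondrial genes, 1 of 17 cytosolic genes (TARS3, which encodes a threonine enzyme) and KARS1. The 8 mitochondrial genes, such as HARS2, PARS2, TARS2 and YARS2, lay between 10.4 and 46.2 CPM in the other 3 libraries.

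The 8 high genes included NARS1 and TARS1 of the cytosol, MARS2, RARS2 and WARS2 of mitochondria, and GARS1. MARS2, the mitochondrial methionine enzyme gene at chr2:197705369-197708395, was at 7.72, 4.11, 518 and 7.60 CPM, so that IgG 1 was 67 times the highest other library. NARS1 was at 51.7, 58.4, 1033 and 77.9 CPM, a ratio of 13.3 to the highest other library. WARS2, the mitochondrial tryptophan enzyme gene, was at 33.0, 23.0, 418 and 27.2 CPM, and its cytosolic counterpart WARS1 was at 134, 155, 0.258 and 127 CPM. In each of these genes the other 3 libraries lay within 2-fold of each other and IgG 1 lay far outside them. TARS1 was at 50.2, 78.1, 668 and 103 CPM, RARS2 at 23.5, 27.9, 335 and 14.6 CPM, and EARS2, the mitochondrial glutamate enzyme gene, at 48.7, 36.2, 251 and 36.7 CPM. The ratio of IgG 1 to the highest other library was 12.7 for WARS2, 12 for RARS2, 6.52 for TARS1, 5.15 for EARS2 and 2.57 for GARS1.

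Other genes had reads in all 4 libraries without IgG 1 being at least 2-fold above every other library. The cytosolic alanine enzyme gene AARS1 was at 59.7, 133, 42.8 and 139 CPM, and LARS1, the cytosolic leucine enzyme gene, at 65.4, 148, 197 and 165 CPM. FARSA was at 236, 192, 16 and 179 CPM and FARSB at 125, 99.5, 7.48 and 90.5 CPM. The subunits of the phenylalanine enzyme thus kept the same order of libraries, with IgG 1 lowest and anti-PHGDH 1 highest. MARS1 was at 106, 85.5, 13.2 and 71.5 CPM, RARS1 at 51.4, 95.4, 10.3 and 125 CPM, and the cytosolic tyrosine enzyme gene YARS1 at 181, 227, 1.81 and 232 CPM. AARS2, the mitochondrial alanine enzyme gene, was at 19.0, 27.1, 1.81 and 30.4 CPM, and NARS2, the mitochondrial asparagine enzyme gene, at 14.3, 15.6, 0.774 and 14.6 CPM. All but LARS1 were lowest in IgG 1, and LARS1 was highest there.

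The fitted differences of the synthetases repeated the pattern of IgG 1. They ran from -3.32 for MARS2 to 3.83 for QARS1 with standard errors of 1.51 to 2.70, and 23 of the 34 genes shared the lowest adjusted p of 0.677. After MARS2 the lowest were those of NARS1, -2.35 ± 1.64, TARS1, -2.05 ± 1.63, and WARS2, -1.93 ± 1.93, and beside QARS1 the highest were those of KARS1, WARS1, 3.52 ± 2.05, and YARS1, 2.99 ± 1.83 (log2, SE; limma adjusted p = 0.677 for each). Without IgG 1, the fitted difference was -0.36 for MARS2, -0.50 for NARS1, 0.017 for WARS2, 0.19 for WARS1 and -0.20 for YARS1. Without IgG 2, which leaves IgG 1 as the lone control and assumes that it varies like the anti-PHGDH group, 23 of the 34 were called higher and 7 lower, where 74.9% and 10.8% of all genes were. The fitted differences thus depended on which IgG library was kept. With IgG 1 as the lone control they were -6.28 for MARS2, -4.21 for NARS1, -3.87 for WARS2, 6.85 for WARS1 and 6.18 for YARS1.

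The anti-PHGDH libraries also differed from each other. In anti-PHGDH 1, 6 of the 34 genes were at least 2-fold below anti-PHGDH 2, against 14.4% of all genes tested, and 1 was at least 2-fold above, against 13.5%. The 6 lower genes included AARS1, EPRS1, HARS2 and IARS2, and the higher one was IARS1. EPRS1, whose protein joins both glutamate and proline to their tRNAs, was at 94.8, 220, 4.39 and 240 CPM in the 4 libraries in order, with anti-PHGDH 2 and IgG 2 near each other and anti-PHGDH 1 below them. The isoleucine enzymes went opposite ways, with IARS1 at 189 CPM in anti-PHGDH 1 and 84.7 in anti-PHGDH 2, and IARS2, its mitochondrial counterpart, at 42.5 and 107 CPM. In IgG 1 and IgG 2 they were at 12.4 and 84.2 CPM for IARS1 and 11.1 and 113 CPM for IARS2. Mitochondrially encoded reads took a larger share of anti-PHGDH 1, as given above, and their part in these differences was not tested.

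Among the 8 genes of the multisynthetase complex, such as EPRS1, IARS1, LARS1 and QARS1, the median of anti-PHGDH 1 minus anti-PHGDH 2 was -0.65 on the log2 scale, with a range of -1.21 to 1.15. It was -0.53 over the 17 cytosolic genes, the set most like the complex, so the shift is not particular to the complex. It was -0.33 over all 34 synthetases and -0.03 over all genes tested. Between anti-PHGDH 2 and IgG 2 the median over the same 8 genes was 0.01. The scaffold gene AIMP1 was at 25.6, 96.2, 0.258 and 92.4 CPM in the 4 libraries, AIMP2 at 52.9, 45.2, 0.258 and 51.9, and EEF1E1 at 38.0, 63.3, 2.32 and 60.8. All 3 scaffold genes were within 1.2-fold between the libraries numbered 2 and at or near 0 in IgG 1.

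Other genes of tRNA charging gave the same counts. Of the 13 genes listed for this, 11 were tested and 0 were called higher or lower by limma, and 0 were past 2-fold between the libraries numbered 2, beside 0.0105%, 0%, 12.5% and 1.97% of all genes as above. GATC, a subunit of the mitochondrial amidotransferase that makes glutaminyl-tRNA from glutamyl-tRNA, a step that stands in for a mitochondrial glutamine synthetase gene, was at 127, 106, 0.516 and 128 CPM. Its partner subunits GATB and QRSL1 were at 0 in IgG 1 and between 12.7 and 29.1 CPM in the other 3. For GATB the ratio between the libraries numbered 2 was 0.565 (0.316 to 0.974), an interval that leaves out 1. It rests on 20 reads in anti-PHGDH 2 and 46 in IgG 2, without adjustment for the number of genes. The ratio of anti-PHGDH 1 to IgG 2 was 0.969 for GATB. The other tested genes of this list had intervals that held 1. DTD1, which removes wrongly attached D-amino acids, was the only 1 of the 11 that was at least 2-fold above every other library in IgG 1, at 177 CPM. SEPSECS and AARSD1 were too low to be tested.

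The cytosolic and mitochondrial sets were then compared as sums. Cytosolic enzyme genes summed to 1775 CPM in anti-PHGDH 1, 2188 in anti-PHGDH 2, 2695 in IgG 1 and 2205 in IgG 2, and mitochondrial ones to 372, 464, 1535 and 462 CPM. The cytosolic sum divided by the mitochondrial sum was 4.77 (95% counting interval 4.48 to 5.07), 4.71 (4.30 to 5.17), 1.76 (1.70 to 1.81) and 4.77 (4.40 to 5.17) in that order. The ratio of sums was the same within counting error in both anti-PHGDH libraries and in IgG 2, and lower in IgG 1. Sums weigh abundant genes most, and gene by gene the balance was less even. Over the 14 amino acids with both genes tested, the median log2 ratio of cytosolic to mitochondrial CPM + 1 was 1.83, 2.40, 1.96 and 2.51 in the same order. The sums are not corrected for transcript length, so only their change between libraries is read. On the log2 scale the ratio with anti-PHGDH minus that with IgG was 0.71, and it was -0.01 without IgG 1 and 1.43 without IgG 2. With GARS1 and KARS1 added to the cytosolic sum the ratios were 5.50, 5.48, 2.04 and 5.55.

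All synthetase genes together took 0.242% of the reads of anti-PHGDH 1 (95% Wilson interval 0.237% to 0.247%), 0.301% of anti-PHGDH 2 (0.292% to 0.311%), 0.467% of IgG 1 (0.460% to 0.473%) and 0.303% of IgG 2 (0.294% to 0.311%). The shares in anti-PHGDH 2 and IgG 2 had overlapping intervals. All are shares of total reads, which include the mitochondrially encoded ones. Those made up 28.8% of anti-PHGDH 1, 8.69% of anti-PHGDH 2, 3.87% of IgG 1 and 3.37% of IgG 2. Shares of the remaining reads are not given, so the lower share in anti-PHGDH 1 is not read as fewer synthetase mRNAs. In IgG 1 the 8 most abundant synthetase genes, which were the same 8 high genes, held 91.3% of the synthetase CPM, whereas the top 8 of each other library held 52.7% to 55.6%. NARS1 alone held 22.1% of it in IgG 1. Reads were above 0 for 24 of the 38 synthetase genes in IgG 1 and for 35 in each other library.

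**Figure D4:**
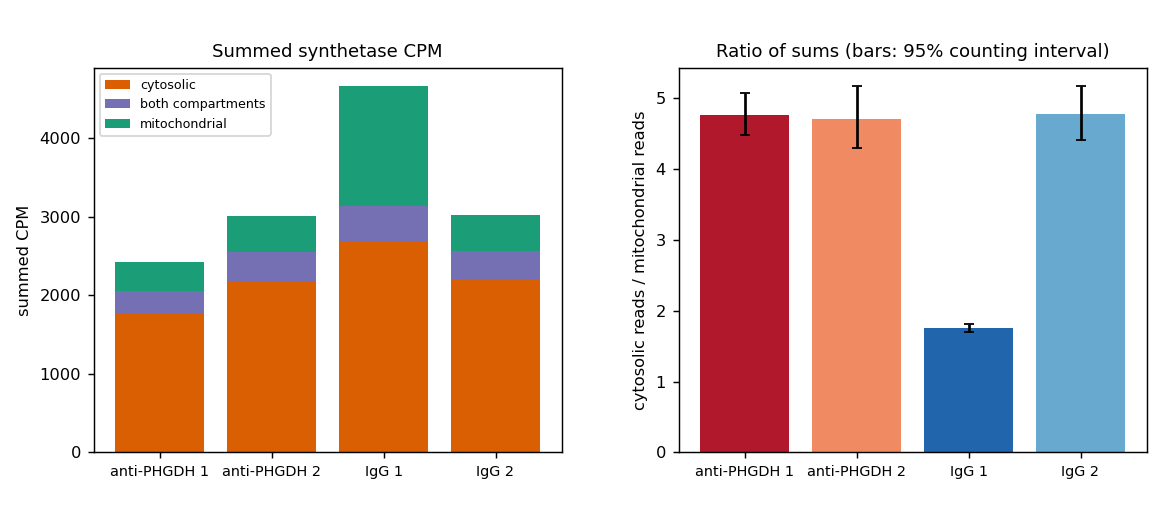
Left, summed CPM of the cytosolic, dual and mitochondrial synthetase genes in each library; right, cytosolic over mitochondrial reads with 95% counting intervals. The ratio is 4.71 to 4.77 in 3 libraries and 1.76 in IgG 1, where the mitochondrial sum is 1535 CPM.

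The fitted medians did not separate the compartments. The median log2 fold change was 1.59 over the 17 cytosolic genes, 1.96 over the 15 mitochondrial genes and 1.92 over all genes tested, so both sets lay near the table as a whole. Without IgG 1 the medians were -0.49, -0.10 and 0.14. Centring the libraries on their medians moved all of them below 0, to -0.91, -0.54 and -0.57.

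For 14 amino acids both the cytosolic and the mitochondrial enzyme gene were tested, and their log2 ratio was followed across the libraries. For threonine (TARS1 over TARS2) it was 0.59, 0.97, 9.39 and 1.13 in anti-PHGDH 1, anti-PHGDH 2, IgG 1 and IgG 2. For tryptophan (WARS1 over WARS2) it was 1.99, 2.70, -8.38 and 2.18. In both, IgG 1 was far from the other 3 libraries, on opposite sides. Over the 14 amino acids the median size of the difference between anti-PHGDH 2 and IgG 2 was 0.30, and that between IgG 1 and IgG 2 was 5.64.

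The largest shift between the libraries numbered 2 was that of arginine (RARS1 over RARS2), 1.73 in anti-PHGDH 2 and 3.01 in IgG 2. Methionine (MARS1 over MARS2) came next, at 4.08 and 3.08, with few MARS2 reads. For 9 of the 14 the shift was under 0.5. Isoleucine (IARS1 over IARS2) was the amino acid for which anti-PHGDH 1 stood apart most, at 2.13 against -0.33 in anti-PHGDH 2 and -0.42 in IgG 2.

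**Figure D5:**
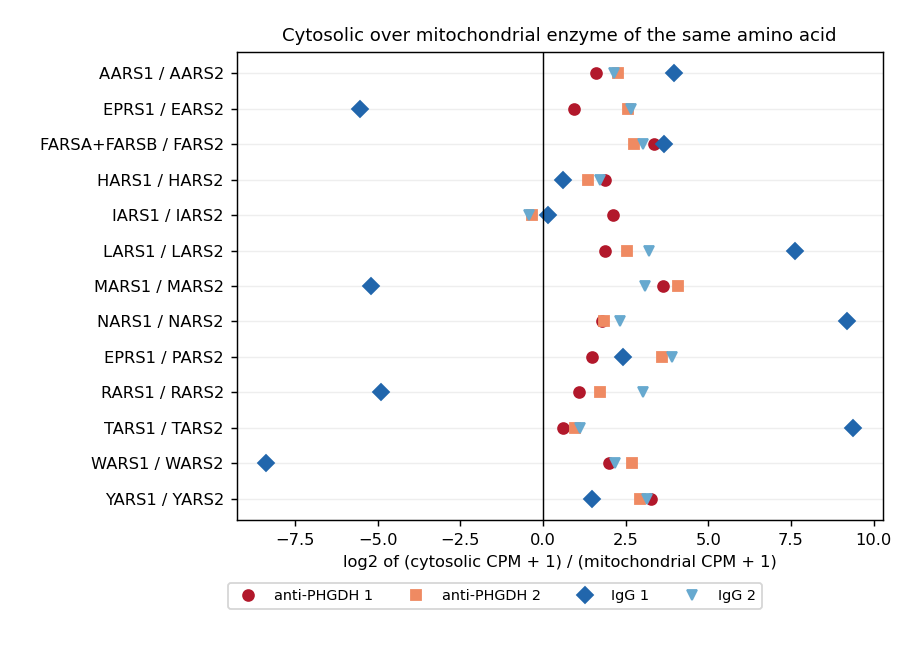
Log2 of cytosolic over mitochondrial CPM + 1 for 13 of the 14 amino acids with both genes tested, 1 point for each library; glutamate and proline share EPRS1. IgG 1 runs from -8.38 to 9.39, and IgG 2 from -0.42 to 3.90.

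The histidine enzymes HARS1 and HARS2 are the only pair of synthetase genes that lie within 1000 bases of each other, head to head on chromosome 5, and so show how the counts of neighbours compare. HARS1 was at 40.7, 59.2, 0.516 and 56.3 CPM in the 4 libraries and HARS2 at 10.4, 22.2, 0 and 16.5. Both were low in IgG 1 and lowest of the other 3 in anti-PHGDH 1. The 84 bases between their annotated starts, chr5:140691371-140691454 of GRCh38.p14 on the + strand from RefSeq, are shown because they separate the starts of both genes, with capitals for matches to the ETS family motif CCGGAAGT on either strand.

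HARS1-HARS2: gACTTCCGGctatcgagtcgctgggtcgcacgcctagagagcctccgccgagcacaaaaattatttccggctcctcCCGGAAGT

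The interval holds 2 matches, 1 toward each end, and 59.5% of its bases are G or C. A match to CCGGAAGT or its reverse complement ACTTCCGG was in 2.32% of 34943 windows of the same length before RefSeq gene starts, and at least 2 matches were in 0.12%. A match is a description of the letters.

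Of the 34 tested synthetase genes 6 share bases with another protein-coding gene in the RefSeq annotation, among them MARS1, YARS1, EARS2 and FARS2. The largest overlap, 11017 bases, is that of FARS2 with LYRM4, a mitochondrial iron-sulfur protein gene at 99.5, 133, 0 and 120 CPM. EARS2 was at 251 CPM in IgG 1, where its neighbour GGA2, a Golgi sorting adaptor gene, was at 0. Whether the authors' counting used strand is not given in the sources used here, so reads in shared bases cannot be assigned to 1 gene of a pair.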

How the data were processed

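The authors deposited 1 CPM table for each library. STAR 2.5.4b, featureCounts and hg38 are named in the submitters' processing notes; annotation, strand and filters are not given in the sources used here. Complexes were precipitated from lysate, per the labels' protocols, and libraries were made with a low-input kit with amplification. Whole read counts were recovered from the steps of the deposited CPM values (7 values above 0 of 50227 came out not whole, 0 of them of synthetase genes). CPM are shares, so they do not give the amount of RNA that was precipitated. On the log2(CPM + 1) scale a mean trend was used in limma 3.58.1 (R 4.3.3), two-sided, with Benjamini-Hochberg adjustment over the 9524 genes that passed a filter of 5 CPM in 2 libraries. limma estimated no gene-specific spread beyond the trend (infinite prior degrees of freedom), and standard errors follow it. A fold change on this scale understates the change of low genes. edgeR 4.0.16 and DESeq2 1.42.0 on the recovered counts were alternatives, with other pseudocounts, filters, scalings, a replicate block and each library left out. Scripts were tested on simulated data in which no library departed from the others as IgG 1 does. That check therefore does not cover how the fits behave on these data.

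The members and lists were chosen with earlier results of these data known. All members are accounted for; those given in detail are called genes, genes past 2-fold in both libraries of each antibody, the 4 highest and 4 lowest ratios between the libraries numbered 2 in each compartment, genes above 0 in all libraries, and GARS1, KARS1, SARS1 and SARS2. Fitted fold changes are printed for 10 of these, chosen after their values were seen; the others are given as ranges. Results of 2 members are not reported here by name or drawn by name; they remain in the counts, sums and medians. All 38 symbols were found in the RefSeq table of GRCh38.p14.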

Additional observations from a re-analysis of the deposited data

How the results depend on the processing

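With 2 libraries for each antibody, precision is limited, and the counts moved most when IgG 2 was left out; without IgG 1 the counts of synthetases did not move. Genes called higher in all, 1 in the fit reported, numbered 11 at pseudocount 0.1, 3 under the 1 CPM filter, 3 under a robust trend, 6 without a filter, and 0 with centring on library medians (43 at an unadjusted p under 0.05), limma without trend (363), edgeR (21) and DESeq2 (89). Replicate numbers are shared between the antibodies, but samples with the same number did not deviate together (r = 0.01 over 9524 genes). IgG 1 was at 0 for 61.9% of these genes, so this check cannot tell whether libraries of the same number were prepared together. With a replicate block 4 genes were called in limma and 0 in edgeR (10 at an unadjusted p under 0.05). Leaving out 1 library gave 0 to 7129 genes higher and 0 to 1032 lower (without IgG 1, 99 and 3), 0 to 23 synthetases called higher and 0 to 7 called lower, and 0 to 23 and 0 to 8 synthetases past 2-fold higher and lower in both, the upper ends all without IgG 2. Without anti-PHGDH 2, 2 synthetases were past 2-fold higher and 3 lower. Against IgG 2, anti-PHGDH 1 had 2 synthetases past 2-fold higher and 8 lower, and anti-PHGDH 2 had 0 and 0. A fold of 1.5 gave 1 higher, and quantile normalization gave 1 past 2-fold lower. For the left-out libraries, the fold of 1.5 and quantile normalization, the fold counts over all genes tested are not given. Those counts therefore do not tell whether the synthetases differ from other genes. The cytosolic median of 1.59 ran from -0.49 to 3.25 when 1 library was left out and was -0.91 after centring on library medians, which put the mitochondrial median at -0.54 and that of all genes at -0.57. The cytosolic minus the mitochondrial median, -0.37, was -1.61 with a pseudocount of 0.1, 0.64 with quantile normalization and -1.58 in edgeR with a replicate block. SARS1 turned negative with TMM factors (-0.0037), library medians (-2.24), edgeR (-0.13) and edgeR with a replicate block (-0.0030), and ran from -0.61 to 1.13 when 1 library was left out. With 1 library left out, WARS2 ran from -3.87 to 0.017, YARS1 from -0.20 to 6.18 and KARS1 from -0.20 to 7.38, with the sign turned without IgG 1. The cause of the changes that do not come from leaving out a library was not tested. Over the 10 synthetases with fitted values, adjusted p ran from 1.21e-18 to 0.9998 across the settings, the lowest for KARS1 without IgG 2. The log2 ratio of cytosolic to mitochondrial sums, anti-PHGDH minus IgG, 0.71, ran from -0.01 to 1.43 when 1 library was left out.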
